A study of Rattus norvegicus with 102 samples.

Results

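The genes described here are the core circadian clock genes, taken as a list of 10 symbols: Arntl, Clock, Per1, Per2, Per3, Cry1, Cry2, Nr1d1, Nr1d2 and Dbp. A gene entered when its symbol stood in a row of the expression tables, which held for 9 of the 10 among 26284 genes listed in the Illumina table. Clock was not analysed here, as its symbol matched 0 rows. RNA came from 3 microdissected hippocampal subfields, CA1, CA3 and the dentate gyrus (DG), of 34 male Fisher 344 rats (Fischer 344 in the study's methods). Each of 3 tables held 1 library per rat and subfield. The 10 young rats had an age of 5 to 6 months. The 24 aged rats, of 17 to 22 months, were split by their performance in a water maze into 12 aged unimpaired and 12 aged impaired rats. All 3 groups went through the maze, and the labels give no drug or targeted allele for any of them. The same RNA was sequenced with a poly-A protocol on Illumina and, as a technical repeat, on Ion Proton machines, and a further table labelled WT holds a separate set of libraries of the same tissue. The hour of day at which each rat was killed is not given in the sources used here.

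The clock is a transcription loop that runs in nearly every cell. ARNTL (also called BMAL1) pairs with CLOCK and switches on genes that carry E-box sequences, among them the Per and Cry genes, whose proteins return to the nucleus and repress their own activator. The Rev-erb receptors NR1D1 and NR1D2 repress Arntl through ROR elements and close a further loop, while DBP is an output factor that acts through D-box sequences. In the hippocampus these transcripts cycle over the day, and Per1 and Per2 also respond to glucocorticoids and to neuronal activity.

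The promoters of 3 clock genes and of Ciart, a repressor of the same activator, are shown because they hold the motifs through which these genes are tied in the loop and because Arntl, Per2, Nr1d1 and Ciart recur in the results. Each is the reference sequence of RefSeq on build GRCr8, from 250 bases before to 50 bases after an annotated start, 5′ to 3′ on the strand of the gene, with the motifs found in capitals. In the Arntl promoter (chr1:176766078-176766377, plus strand) the capitals mark the ROR element core TAGGTCA at position −16 from the start. In the Per2 promoter (chr9:99496944-99497243, minus strand) they mark the D-box TTATGTAA at −192 and the E-box variant CACGTT at −62. In the Nr1d1 promoter (chr10:84229405-84229704, minus strand) they mark the E-box CACGTG at −191. A further annotated start of Nr1d1 (chr10:84231763-84232062), not printed, held CACGTT at −174 on the strand opposite to the gene. In the Ciart promoter (chr2:186112197-186112496, minus strand) they mark 3 E-boxes CACGTG at −93, −35 and −21.
Arntl: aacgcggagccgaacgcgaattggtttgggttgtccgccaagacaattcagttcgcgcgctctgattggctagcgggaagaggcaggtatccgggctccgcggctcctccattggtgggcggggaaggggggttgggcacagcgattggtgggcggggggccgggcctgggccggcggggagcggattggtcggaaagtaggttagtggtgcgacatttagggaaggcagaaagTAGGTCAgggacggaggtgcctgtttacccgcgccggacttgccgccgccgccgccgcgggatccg
Per2: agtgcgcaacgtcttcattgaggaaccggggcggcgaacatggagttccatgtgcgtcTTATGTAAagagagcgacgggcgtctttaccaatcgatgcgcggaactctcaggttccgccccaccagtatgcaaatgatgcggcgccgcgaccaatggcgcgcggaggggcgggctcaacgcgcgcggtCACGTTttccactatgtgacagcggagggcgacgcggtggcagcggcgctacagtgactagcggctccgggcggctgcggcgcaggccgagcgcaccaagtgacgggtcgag
Nr1d1: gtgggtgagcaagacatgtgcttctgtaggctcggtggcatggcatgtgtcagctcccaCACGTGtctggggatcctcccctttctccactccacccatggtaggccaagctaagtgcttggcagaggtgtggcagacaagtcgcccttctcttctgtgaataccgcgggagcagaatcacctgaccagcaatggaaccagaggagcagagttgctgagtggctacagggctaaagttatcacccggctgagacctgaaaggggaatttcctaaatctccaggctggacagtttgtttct
Ciart: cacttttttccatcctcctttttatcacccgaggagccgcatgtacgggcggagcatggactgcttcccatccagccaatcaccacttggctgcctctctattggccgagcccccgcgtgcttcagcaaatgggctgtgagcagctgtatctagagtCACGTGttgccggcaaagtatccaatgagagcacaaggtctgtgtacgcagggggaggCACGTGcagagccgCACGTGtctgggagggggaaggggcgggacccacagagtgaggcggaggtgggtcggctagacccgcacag

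These letters are common enough to be met elsewhere. On both strands of 33469 rat promoters of the same length, CACGTG stood in 6.42%, CACGTT in 4.83%, TAGGTCA in 2.63%, the related ROR core TGGGTCA in 4.09%, the D-box TTATGNAA in 3.66% and the cyclic AMP element TGACGTCA in 1.83%. The windows of Cry2 (CACGTT at −212, on the strand opposite to the gene) and Tef (CACGTG at −198) held 1 match each, and those of Per1, Per3, Nr1d2 and Dbp held none of these letters. A match is a description of the window and not a binding site.

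Sequencing depth and tissue composition set limits that touch the results. Illumina libraries held 3246922 to 42750899 counted reads, Ion Proton libraries 4470473 to 21434160 and WT libraries 3539310 to 20625745, with medians of 10745741, 9738395 and 8068863. The rats carry numbers in 2 series, below 9000 (18 rats: 5 young, 6 aged unimpaired, 7 aged impaired) and from 9000 up (16 rats: 5, 6 and 5). Rats came from a pair of sites, and the numbers of young and of aged rats in the series match those that the methods give for the sites. The labels name no site, so site and number series cannot be told apart. The numbers fall into 4 runs, each with rats of all 3 groups. In order of number they are called the first run (4 rats) and the second run (14 rats), both below 9000, and the third run (3 rats) and the fourth run (13 rats), both from 9000 up. The 7 rats of the first run and the third run were also the most deeply sequenced on Illumina (28017953 to 42750899 reads a library, against at most 23656443 in the others), while their Ion Proton libraries (7173849 to 18709568) and WT libraries (3539310 to 9814234) overlapped those of the other rats. The CA1 and DG markers bore out the subfield labels in sum, with 3 of 3 tested CA1 markers higher in CA1 than in CA3 and in DG and 6 of 6 DG markers lower in CA3 than in DG and 5 of 6 lower in CA1 than in DG. Single libraries overlapped, as the CA1 marker sum fell to 1731.8 in a CA1 library (CA3 median 2726.2), and the DG marker sum reached 5569.0 in a CA1 library and fell to 938.6 in a DG library (CA1 median 3156.6). The CA3 markers did so less clearly: 3 of 5 were lower in CA1 than in CA3, but 2 were higher and 1 lower in CA3 than in DG, and their sum reached 18508.2 in a DG library, above the median of 17472.5 in CA3. By mean scores of these same CA1, CA3 and DG markers in both poly-A tables, 14 libraries of 11 rats lay nearer to another subfield than to their own. They were 8 CA3, 4 DG and 2 CA1 libraries, all but 1 in the series from 9000. The subfield contrasts of the clock genes are therefore also given within each series and without those 14 libraries. In bulk tissue, fewer cells of a type and less RNA per cell cannot be told apart.

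Every one of the 9 clock genes was read in all 3 subfields, and the differences between subfields were small. Levels are normalised read counts of the Illumina table, means over 34 rats, with no correction for gene length, so a gene is compared only with itself. The activator Arntl (ENSRNOG00000014448, chromosome 1) stood at 397.3 in CA1, 341.0 in CA3 and 411.5 in DG. Of the period genes, Per1 (chromosome 10) stood at 919.9, 826.5 and 910.7 in the same order. Per2 (chromosome 9) stood at 1019.5, 919.6 and 892.0, and Per3 (chromosome 5) at 618.5, 553.0 and 631.8. The cryptochrome Cry1 (chromosome 7) stood at 197.6, 182.6 and 181.6, and Cry2 (chromosome 3) at 1886.0, 1893.1 and 1781.9. For the Rev-erb receptors the means were 954.0, 820.0 and 902.0 for Nr1d1 (chromosome 10) and 553.4, 500.8 and 526.2 for Nr1d2 (chromosome 15). Dbp (chromosome 1) stood at 1475.9, 1156.9 and 1209.0. CA3 thus held the lowest mean for 6 of the 9 genes, DG for 3.

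Comparing subfields asked whether the clock runs at different levels in neighbouring parts of the hippocampus. A gene was called when the limma test on log2(value + 1) gave a Benjamini-Hochberg adjusted p below 0.05 in both poly-A tables with the same direction. Between CA1 and CA3, 3 of 9 clock genes were called, all higher in CA1, beside 14.4% of all genes tested. Dbp was higher in CA1 by 0.39 on the log2 scale (SE 0.07, adjusted p = 3.21e-06, Ion Proton 0.37). Arntl was higher by 0.21 (SE 0.05, adjusted p = 0.00126, Ion Proton 0.30) and Nr1d1 by 0.22 (SE 0.07, adjusted p = 0.00902, Ion Proton 0.33). In the WT table the Nr1d1 difference was 0.04 (adjusted p = 0.78), and the Nr1d1 call was also lost without a filter on low values and with DESeq2 (0.22 in both). With the rat as a block, a fit in which the 3 subfields of a rat are paired, Per2 was called as well (0.21, SE 0.06, adjusted p = 0.00491, Ion Proton 0.20 with adjusted p = 0.0216), so that 4 of 9 passed beside 16.1% of all genes. Without the block the other 6 did not pass both tables, with Illumina differences of 0.21 for Per2, 0.17 for Per1, 0.16 for Nr1d2, 0.20 for Per3, 0.10 for Cry1 and −0.00 for Cry2. The median difference of the 9 genes was 0.196 on the log2 scale, against 0.006 for all genes.

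Between CA1 and DG, Dbp and Per2 were called, 2 of 9 beside 26.9% of all genes, both higher in CA1. Dbp was higher by 0.28 (SE 0.07, adjusted p = 0.000408, Ion Proton 0.33) and stood higher in CA1 in 31 of 34 rats. Per2 was higher by 0.19 (SE 0.08, adjusted p = 0.0294, Ion Proton 0.28), in 27 of 34 rats, and lost its call in the WT table (0.17) and without the 7 deepest rats (0.15). Between CA3 and DG, 2 of 9 were called beside 28.5% of all genes, and they went opposite ways. Arntl was lower in CA3 by 0.26 (log2 difference −0.26, SE 0.05, adjusted p = 2.82e-05, Ion Proton −0.29). Cry2 was higher in CA3 by 0.09 (SE 0.02, adjusted p = 0.00068, Ion Proton 0.14), a small difference that was seen in 29 of 34 rats. Cell type markers moved in the same contrasts, since 6 of 6 oligodendrocyte markers were lower in DG than in CA1 (median log2 difference 0.69) and than in CA3 (0.85), and their part in the clock gene results was not tested.

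These averages hid a split by rat number. In the 18 rats numbered below 9000, Arntl, Per2, Nr1d1 and Dbp each stood higher in CA1 than in CA3 in 18 of 18 rats on Illumina, and lower in CA3 than in DG in 18 of 18 rats. On Ion Proton CA1 exceeded CA3 in 16 of these 18 rats for Arntl, 16 for Per2, 14 for Nr1d1 and 17 for Dbp, and DG exceeded CA3 in 17, 15, 11 and 14. In the WT table CA1 exceeded CA3 in 18, 17, 12 and 18 of them, and DG exceeded CA3 in 18, 17, 12 and 18. Differences were common in this series: 59.6% of all genes had an unadjusted limma p below 0.05 between CA1 and CA3 on Illumina. In the 16 rats numbered from 9000, Illumina values in CA1 exceeded those in CA3 in 7 rats for Arntl, 5 for Per2, 10 for Nr1d1 and 12 for Dbp. The corresponding counts were 9, 8, 11 and 8 on Ion Proton and 9, 3, 9 and 14 in the WT table. Per2 in CA3 showed the split most plainly. Its Illumina values (lowest, median, highest) in CA3 were 496.7, 671.5 and 816.0 below 9000 and 886.6, 1175.9 and 1674.9 from 9000 up, so the 2 series did not overlap there. On Ion Proton they overlapped at their edges (524.6 to 909.0 against 855.7 to 1598.1), as in the WT table (269.5 to 464.6 against 395.8 to 889.6). In DG the same gene on Illumina stood at 667.8, 874.5 and 1096.0 against 781.3, 914.0 and 1231.4, with wide overlap. Dbp in CA3 stood at 707.2, 861.2 and 1275.9 below 9000 and at 1074.2, 1480.7 and 1855.1 from 9000 up. In DG the Dbp values were 957.3, 1162.0 and 1452.4 against 998.0, 1245.7 and 1774.8, and the series again overlapped almost wholly.

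Arntl values of the series lay further apart in CA1 and DG than in CA3 on Illumina, but the test of that difference, given further on, did not call it in both poly-A tables. In CA1 its Illumina values were 380.4, 443.8 and 511.0 below 9000 against 281.6, 330.3 and 422.1 from 9000 up. In DG they were 386.0, 470.4 and 546.6 against 285.1, 350.2 and 432.1, whereas in CA3 they were 282.8, 330.7 and 404.5 against 303.9, 350.2 and 402.3. Arntl medians on Illumina were thus lower in CA3 than in both neighbours in one series, and lay between 330.3 and 350.2 in all 3 subfields in the other.

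**Figure D1:**
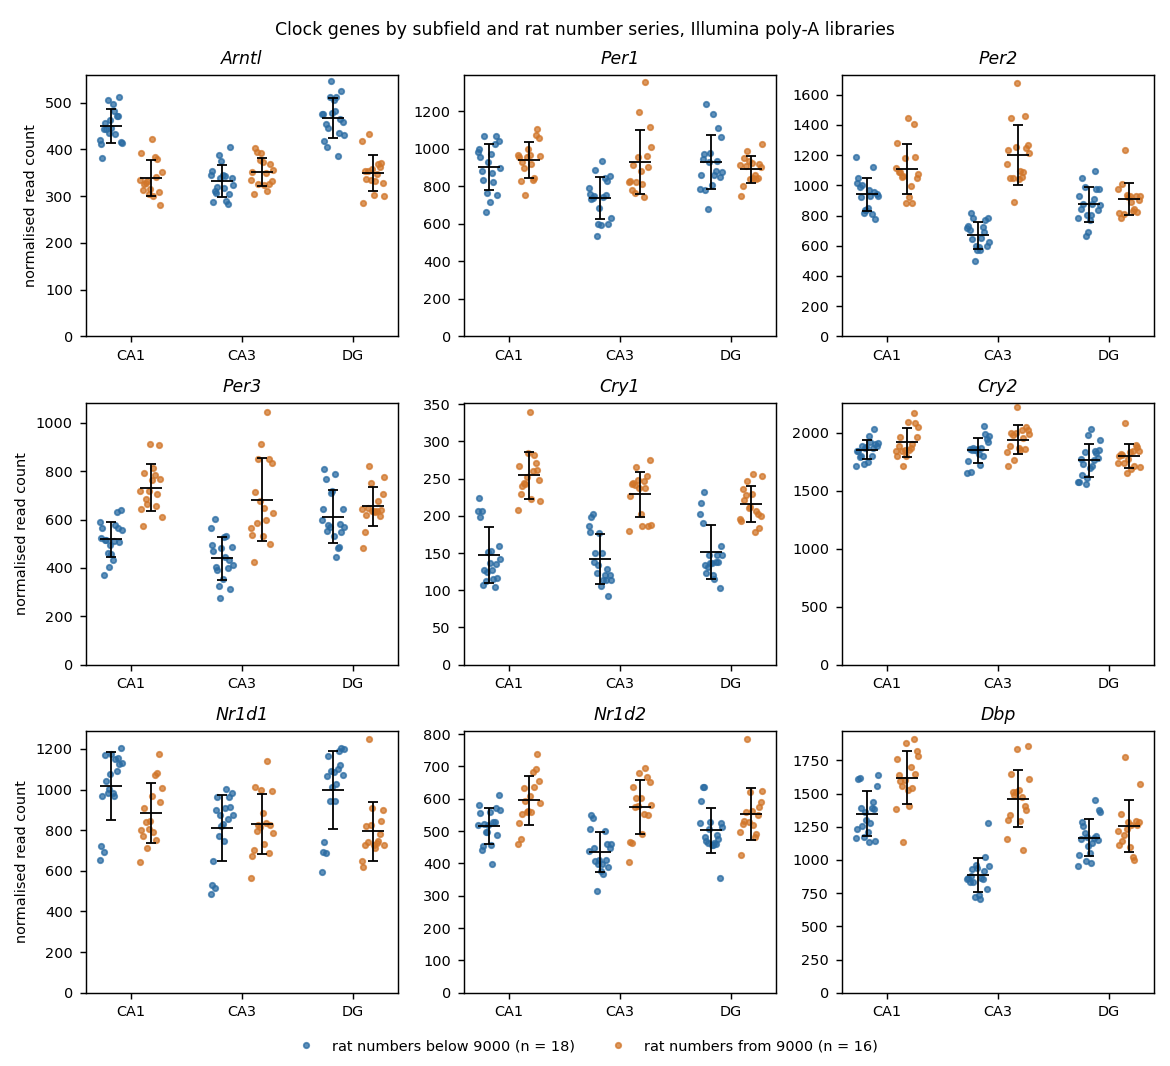
Normalised read count (Illumina, linear axis) of the 9 clock genes in CA1, CA3 and DG, with 1 point a library, blue for the 18 rats numbered below 9000 and orange for the 16 from 9000 up, and bars for mean ± SD. In CA3 the Per2 values of the series do not overlap (496.7 to 816.0 against 886.6 to 1674.9), while Cry1 is higher in orange in all 3 subfields.

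Within each series the calls changed accordingly, in fits without the rat as a block. Below 9000, Arntl (0.44), Per2 (0.49) and Dbp (0.61) were called between CA1 and CA3, 3 of 9 beside 21.8% of all genes. Arntl (−0.49), Per3 (−0.49) and Dbp (−0.40) were called between CA3 and DG, beside 23.4%. Nr1d1, called between CA1 and CA3 over all rats, did not pass both poly-A tables in this series. Between CA1 and DG limma called 0 of 9 there, beside 15.7% of all genes, with 3 genes at an unadjusted p below 0.05 on Illumina (57.7% of all genes) and 1 on Ion Proton (26.2%). From 9000 up, limma called 0 of 9 between CA1 and CA3 beside 3.95% of all genes, with 2 genes at an unadjusted p below 0.05 in each poly-A table (27.2% of all genes on Illumina and 19.3% on Ion Proton), and Arntl there was −0.06 and Per2 −0.11. Per2 (0.28) and Dbp (0.37) were called between CA1 and DG beside 20.9%, and the same genes between CA3 and DG (0.39 and 0.22) beside 22% of all genes. Dbp and Per2 thus had their lowest level in CA3 in one series and in DG in the other. Without the 14 libraries nearer to another subfield, 5 of 9 genes were called between CA1 and CA3, beside 18.7% of all genes, Per2 (0.33) and Nr1d2 (0.24) being added. The calls between CA1 and DG were then Dbp (0.30) and Per2 (0.21), beside 27.9%, and those between CA3 and DG Arntl (−0.28) and Cry2 (0.09), beside 29.8%.

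The difference of the series effect between subfields was then tested itself, with the rat as a block. It was called for 1 of 9 clock genes between CA1 and CA3, beside 15.8% of all genes, for 5 of 9 between CA3 and DG, beside 19.5%, and for 0 of 9 between CA1 and DG, beside 0.539%, where 4 genes had an unadjusted limma p below 0.05 in each table (17.8% of all genes on Illumina and 25.1% on Ion Proton). For CA3 against DG the change from the lower to the higher numbers was 0.77 for Per2 (SE 0.08, adjusted p = 1.11e-12, Ion Proton 0.59). It was 0.62 for Dbp (SE 0.07, adjusted p = 9.36e-11, Ion Proton 0.69), 0.51 for Per3 (SE 0.11, Ion Proton 0.57), 0.38 for Per1 (SE 0.07, Ion Proton 0.47) and 0.36 for Nr1d1 (SE 0.08, Ion Proton 0.45). For CA1 against CA3 it was −0.60 for Per2 (SE 0.08, adjusted p = 2.22e-09, Ion Proton adjusted p = 0.000807). Arntl had an Illumina value of 0.51 for CA3 against DG (adjusted p = 6.02e-10) but 0.20 on Ion Proton (adjusted p = 0.36) and was not called. The median over the 9 genes for CA3 against DG was 0.382, against −0.004 for all genes. Without the 14 libraries nearer to another subfield, in the same paired fit, 3 of 9 were called between CA3 and DG, beside 12.1% of all genes: Per2 (0.79, Ion Proton 0.60), Dbp (0.60, Ion Proton 0.69) and Per3 (0.47, Ion Proton 0.55). Per1 (0.26) and Nr1d1 (0.32) lost their calls there, with Ion Proton adjusted p of 0.16 and 0.357. Per2 kept its call between CA1 and CA3 (−0.61), 1 of 9 beside 11.2%, and between CA1 and DG limma called 0 of 9 beside 0.699%, with 6 genes at an unadjusted p below 0.05 on Illumina (18.3% of all genes) and 5 on Ion Proton (27.2%).

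Markers of other cells and of the subfields moved in the same contrast. All 6 oligodendrocyte markers were called with a median change of −1.73 for CA3 against DG and 1.36 for CA1 against CA3, the opposite sign to the clock genes called. Without the 14 libraries these medians were −1.77 and 1.44, again with all 6 called in each. The summed level of the 6 markers (lowest, median, highest) in CA3 was 116978.6, 157222.8 and 375568.4 below 9000 and 54464.2, 111604.2 and 221882.1 from 9000 up. In DG it was 44401.7, 54488.4 and 79008.3 against 66287.8, 117127.6 and 214188.8. Of the neuronal lists, 5 of 6 DG markers (median change 1.29) and 3 of 5 CA3 markers (−1.25) were called for CA3 against DG. Summed CA3 markers in CA3 libraries stood at 16984.8, 18362.9 and 22604.6 below 9000 and fell to 3333.3 in the lowest library from 9000 up, where the median was 12326.6. Summed DG markers in CA3 stood at 746.9, 1106.4 and 1788.4 against 1115.8, 1702.3 and 7515.4. The part of these differences in tissue composition in the clock gene results was not tested.

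Averaged over the 3 subfields of a rat, 6 of 9 clock genes differed between the number series, beside 12.9% of all genes. The repressor Cry1 differed most, with rat means (lowest, median, highest) of 103.7, 134.3 and 213.8 below 9000 and 194.1, 236.4 and 257.0 from 9000 up. Its log2 difference was 0.68 (SE 0.08, adjusted p = 2.01e-08), with 0.67 on Ion Proton, and it held in each subfield (0.82 in CA1, 0.70 in CA3 and 0.53 in DG). Per3 was higher from 9000 up by 0.40 (SE 0.06), Per2 by 0.37 (SE 0.05), Dbp by 0.36 (SE 0.05) and Nr1d2 by 0.24 (SE 0.05), all with adjusted p of 0.000254 or below on Illumina. The Nr1d2 call rested on an Ion Proton adjusted p of 0.0492 and was lost with a pseudocount of 0.1, without a filter on low values and without the 14 libraries nearer to another subfield. Arntl went the other way and was lower from 9000 up, with a log2 difference of −0.25 (SE 0.03, adjusted p = 2.78e-07, Ion Proton −0.30). Per1 (0.10), Cry2 (0.05) and Nr1d1 (−0.15) were not called. The median over the 9 genes was 0.243, against −0.001 over all genes.

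Among these 6 genes the difference of the series effect between subfields was called for Per2, Dbp and Per3, as given above, and not for Cry1, Nr1d2 or Arntl. On Illumina Per2 differed by 0.83 in CA3 but by 0.22 in CA1 and 0.06 in DG, Dbp by 0.71, 0.26 and 0.09, and Arntl by 0.08 in CA3 against −0.41 in CA1 and −0.43 in DG. Over the same rat means, 4 of 4 blood markers (median 1.18), 5 of 5 choroid plexus markers (1.16), 5 of 6 oligodendrocyte markers (0.29), 4 of 6 astrocyte markers (0.26), 3 of 5 microglia markers, 2 of 4 thalamus and habenula markers and 1 of 5 meninges markers were higher from 9000 up, and their part was not tested. In CA1 the median sum of the blood markers was 819.6 below 9000 and 1798.5 from 9000 up. The corresponding medians were 603.3 against 1874.3 for CA3 libraries and 569.4 against 1299.7 for DG libraries.

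Cry1 and the Rev-erb receptors differed further between the runs of numbers within a series. Between the first run and the second run, 3 of 9 clock genes were called beside 21% of all genes. The 4 rats of the first run had Cry1 means of 198.3, 206.9, 195.6 and 213.8, and the 14 rats of the second run lay between 103.7 and 154.7. The runs did not overlap. The log2 difference of Cry1 was 0.66 (SE 0.06, adjusted p = 1.43e-08), with 0.55 on Ion Proton and 0.75 in the WT table. Nr1d1 ran the other way, with means of 576.9, 649.2, 786.4 and 633.7 in the 4 rats against 891.2 to 1086.8 in the 14. Its difference was −0.63 (SE 0.06, adjusted p = 1.77e-08), with −0.98 on Ion Proton and −0.47 in the WT table, where the runs overlapped. Nr1d2 was higher in the 4 rats by 0.22 (SE 0.06, adjusted p = 0.00455, Ion Proton 0.49), with means of 494.8, 560.5, 581.6 and 538.9 against 409.9 to 528.0. The 4 rats comprised 2 young, 1 aged unimpaired and 1 aged impaired rat.

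Between the third run and the fourth run, both Rev-erb receptors were called, 2 of 9 beside 7.69% of all genes. The 3 rats of the third run had Nr1d1 means of 619.8, 697.3 and 734.1, below all 13 rats of the fourth run (746.2 to 948.9), a difference of −0.34 (SE 0.07, adjusted p = 0.00042, Ion Proton −0.39). Their Nr1d2 means were 454.9, 472.0 and 487.2 against 522.7 to 660.3, a difference of −0.34 (SE 0.06, adjusted p = 0.000173, Ion Proton −0.39). In the WT table these differences were −0.03 (adjusted p = 0.88) and −0.08 (adjusted p = 0.371). Cry1 stood at 194.1, 228.6 and 235.6 in the 3 rats and at 210.8 to 257.0 in the 13. Illumina depth moved with these runs, as given above, and its part was not tested. Without the 7 rats of the first run and the third run, the series difference of Cry1 was 0.85, and Nr1d1 was called as well (−0.24, adjusted p = 9.51e-06, Ion Proton −0.44).

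**Figure D2:**
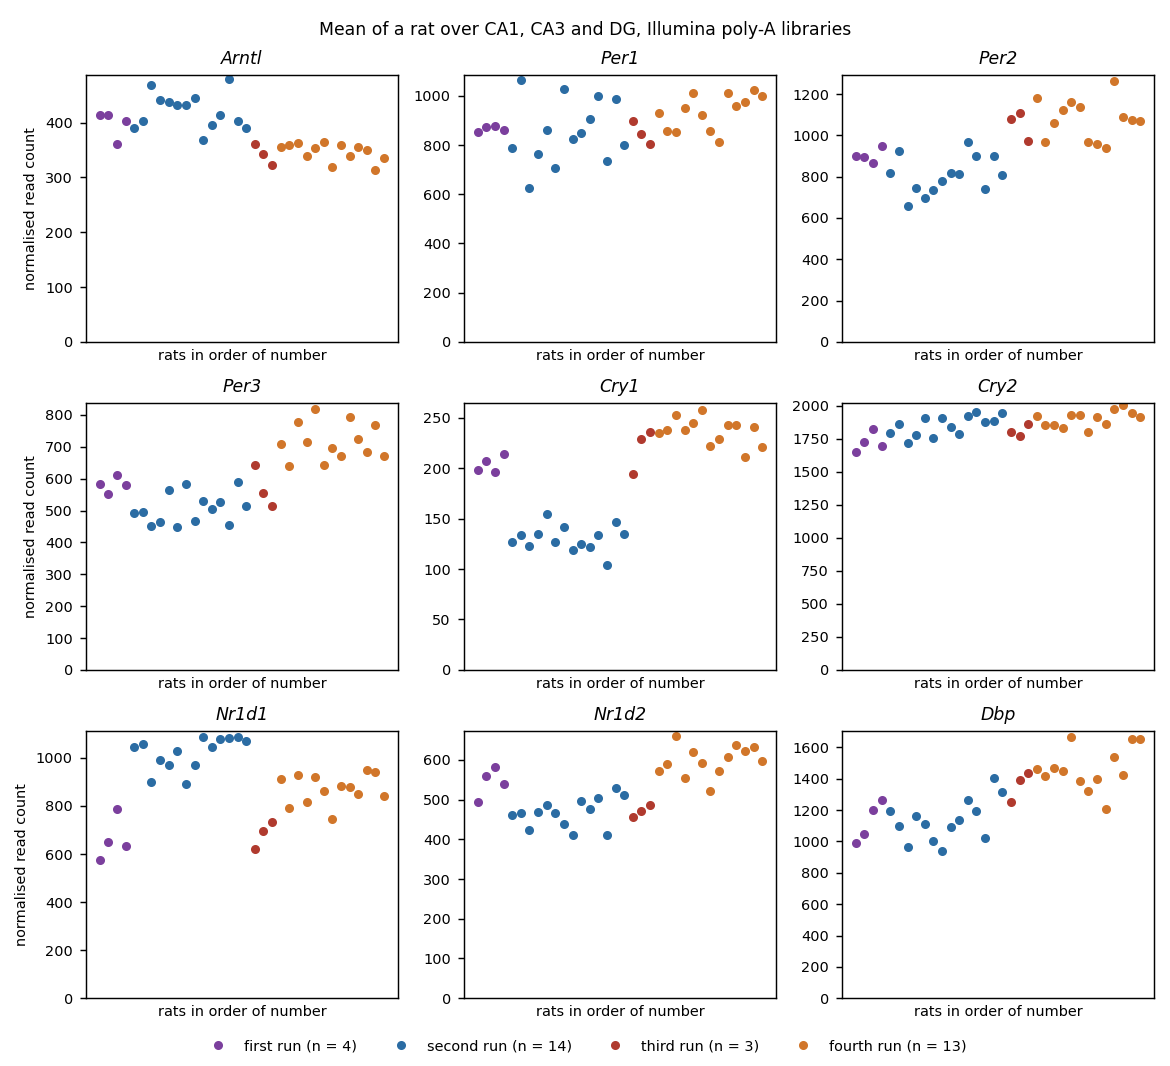
Mean of a rat over its 3 subfields (Illumina normalised read count, linear axis) for the 9 clock genes, 1 point a rat, rats in the order of their numbers and coloured by the 4 runs. The 4 rats of the first run stand at 195.6 to 213.8 for Cry1 and 576.9 to 786.4 for Nr1d1, apart from the 14 rats of the second run (103.7 to 154.7 and 891.2 to 1086.8).

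Age and cognitive status, the comparisons of the design, moved the clock genes little. A gene was called with p below 0.01 on Illumina and a one-sided p below 0.05 in the same direction on Ion Proton, both from limma. For age 1 of 9 clock genes was called in CA1, namely Per1, beside 0.851% of all genes, 0 of 9 in CA3, beside 0.402%, and 0 of 9 in DG, beside 1.09%. Per1 in CA1 (Illumina; lowest, median, highest) stood at 832.3, 990.8 and 1105.6 in young rats, at 751.3, 929.5 and 1042.9 in aged unimpaired rats and at 663.7, 862.0 and 1065.3 in aged impaired rats. The groups overlapped widely. The log2 difference of aged and young was −0.18 (SE 0.06, p = 0.00459), and its p adjusted over all genes was 0.336. On Ion Proton it was −0.24 (SE 0.13, two-sided p = 0.0727) and in the WT table −0.12 (p = 0.148). The difference was −0.16 (p = 0.115) below 9000, −0.20 (p = 0.0052) from 9000 up and −0.20 (p = 0.0138) without the 7 deepest rats, and none of these 3 fits met the call, nor did DESeq2 (−0.17). Markers of microglia rose with age in the same subfield (3 of 5 called), and their part was not tested.

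Set against the young rats, which both comparisons share, aged unimpaired rats had a Per1 difference of −0.14 in CA1 (p = 0.0295; 0 of 9 clock genes called, beside 0.621% of all genes). Aged impaired rats had −0.23 (p = 0.00274, adjusted p = 0.307; 1 of 9 called, beside 1.23%). The test of impaired against unimpaired rats gave −0.09 for Per1 in CA1 (p = 0.195). In CA3 and DG no clock gene had an unadjusted p below 0.05 for age with limma, edgeR or DESeq2. Of all genes, only 3.31% in CA3 and 5.2% in DG did so with limma on Illumina. In CA3 the age difference of Per1 was −0.18 (p = 0.0808), and the lowest p of the 9 genes was 0.058, for Nr1d1. Over the 9 genes the age differences spanned −0.18 to 0.05 in CA1, −0.18 to 0.20 in CA3 and −0.08 to 0.15 in DG. Over rat means 0 of 9 genes were called for age beside 1.71% of all genes, and Per1 had −0.14 (p = 0.0186).

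Between aged impaired and aged unimpaired rats, limma called 0 of 9 clock genes in CA1, CA3, DG and over rat means, beside 0.635%, 0.0216%, 0.124% and 0.0791% of all genes. The lowest p lay in DG, where 2 of 9 genes had an unadjusted p below 0.05 with limma on Illumina, beside 3.85% of all genes, as with edgeR and with DESeq2, and none on Ion Proton. The differences spanned −0.25 to −0.03 in CA3, −0.20 to −0.04 in DG and −0.09 to 0.16 in CA1. On Illumina all 9 genes thus had a lower log2 mean in impaired rats in CA3 and in DG, though 0 of 9 were called. Their median difference was −0.082 in CA3 and −0.104 in DG, against −0.002 over all genes in each. The 9 genes were read in the same rats, so their directions are not independent. In DG Nr1d2 averaged 486.6 in impaired and 557.6 in unimpaired rats (log2 difference −0.20, SE 0.08, limma p = 0.0223, Ion Proton −0.14 with p = 0.196). Dbp averaged 1139.5 and 1280.6 (−0.16, SE 0.07, p = 0.0245, Ion Proton −0.12 with p = 0.272). In CA1 and CA3 0 of 9 genes had an unadjusted p below 0.05 for cognition with limma, edgeR or DESeq2. Of all genes, only 5.71% in CA1 and 1.4% in CA3 did so with limma on Illumina. The lowest limma p of the clock genes were 0.109 (Arntl) and 0.104 (Dbp). Neither the age effect nor the cognition effect differed between subfields for any clock gene at an adjusted p below 0.05, over 27 contrasts each on Illumina, beside 0% of all genes for age and 0% for cognition. At an unadjusted p below 0.05 there were 0 of 27 for each, and with the rat as a block 1 of 27 for each. The share of all genes at that threshold is not given here.

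**Figure D3:**
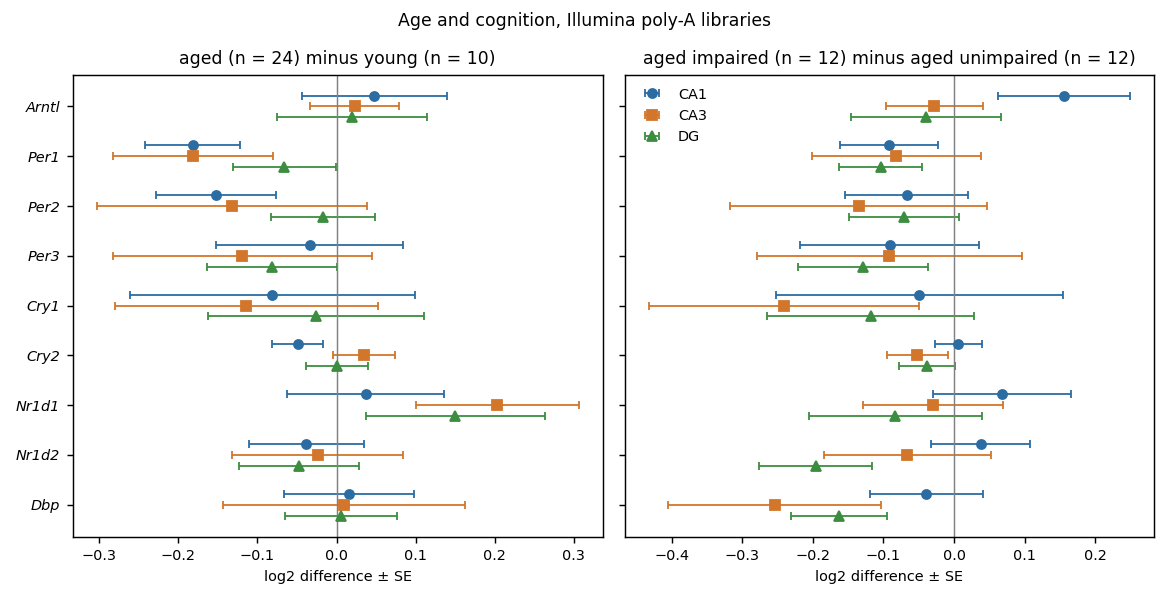
Log2 difference ± SE of the 9 clock genes (Illumina) in CA1, CA3 and DG, aged minus young rats on the left and aged impaired minus aged unimpaired rats on the right, with 0 marked. Per1 in CA1 (−0.18) is the 1 age difference called, and Nr1d2 (−0.20) and Dbp (−0.16) in DG are the largest of the cognition differences in that subfield.

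In a split of the Illumina log2 variance into subfield, rat and remainder, differences between rats took 39.5% (Arntl) to 87.9% (Cry1), 67.7% for Nr1d1 and 63.7% for Nr1d2, while subfield took 1.0% for Cry1 and at most 24.5%, for Dbp. Over all genes the medians were 36.2% between rats and 13.4% for subfield. As there are many more rats than subfields, a raw share of this kind is large for rats even without any likeness within a rat, and the parts are not compared with each other. The intraclass correlation, the share of variance that the 3 subfields of a rat have in common once subfield means are removed, was on Illumina 0.83 for Cry1, 0.53 for Nr1d2 and lowest at 0.24 for Arntl, and all 9 lay above the median of 0.146 over all genes. On Ion Proton 8 of 9 lay above the median of that table, all but Cry2 (−0.08), and for the WT libraries 7 of 9, all but Arntl (−0.00) and Cry2 (0.03). For Cry1 93.3% of the Illumina variance between rats lay between the 4 runs, and for Nr1d1 82.4%, where the median of all genes was 38.3%. Centred on the run, the intraclass correlation of Cry1 fell to 0.09, while Per1 kept 0.51 and Dbp 0.42, at percentiles 99.6 and 99.2 of all genes, and Per2 0.28. Per3 then stood at −0.04, below the median of 0.033 over all genes. On Ion Proton the values of Per1 and Dbp were 0.13 and 0.03 and that of Nr1d1 was −0.18, and for the WT libraries those of Per1 and Dbp were 0.34 and 0.30. Age and cognitive group took 1.4% to 20.4% of the variance between rats, the highest share being that of Per1, where the median of all genes was 3.76%. Agreement of the poly-A tables over all libraries was close for Per2 (r = 0.87), Cry1 (0.84), Dbp (0.80), Per3 (0.79) and Nr1d1 (0.76), and looser for Nr1d2, Arntl (0.59), Per1 (0.48) and Cry2 (0.43).

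The same gene was also compared between the subfields of a rat, as 27 correlations over 34 rats (9 genes, 3 pairs of subfields). As deviations from the mean of the number series, 14 of 27 passed a Benjamini-Hochberg adjusted permutation p below 0.05 on Illumina, and as deviations from the mean of the run 4 did. These are 51.9% and 14.8% of the 27, where 12.4% and 2.48% of the same correlations over all genes were at least as far from 0 as the weakest that passed. Those 4 were Per1 between CA1 and CA3 (r = 0.59, rho = 0.60, p = 0.00118, adjusted permutation p = 0.0189) and between CA1 and DG (r = 0.56, rho = 0.44), and Dbp between CA1 and CA3 (r = 0.53, rho = 0.58) and between CA3 and DG (r = 0.48, rho = 0.44). Within the series from 9000 none of 27 passed. On Ion Proton 2 passed by series (7.41%, against 0.521% over all genes) and none by run. For the WT libraries 9 passed by series (33.3% against 9.7%) and 2 by run (7.41% against 1.13%).

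Clock genes were next compared with each other over rats, as the 36 pairs of the 9 genes. Each rat entered as the mean of its 3 subfields, taken as a deviation from the mean of its number series or of its run, with a permutation test (100000 resamples). On Illumina 14 of 36 pairs passed an adjusted p of 0.05 on either basis. Many other genes also correlate over these rats: 18.2% of all gene pairs by series and 11.5% by run had an r at least as far from 0 as the weakest of these 14 (0.41 and 0.43), against 38.9% of the clock gene pairs. On Ion Proton 7 passed by series (19.4%, against 21.5% of all pairs) and 6 by run (16.7% against 8.39%). For the WT libraries 20 passed by series (55.6% against 14.4%) and 21 by run (58.3% against 14.1%).

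Per1 correlated with both other period genes over rats. By run, Per1 and Per2 correlated with r = 0.65 (rho = 0.56, permutation p = 0.00052, adjusted p = 0.00468), with 0.53 on Ion Proton and 0.65 in the WT table, and without the 2 rats farthest from the median r was 0.51. Per1 and Per3 had r = 0.63 (rho = 0.64, permutation p = 0.00038, adjusted p = 0.00456), with 0.67 and 0.77 in the other tables, and 0.68 without 2 rats. Per2 and Per3 had r = 0.71 on Ion Proton (adjusted permutation p = 0.00126) and 0.66 in the WT table, but 0.29 on Illumina (adjusted permutation p = 0.184). Per1 also went with Cry2 (r = 0.56, adjusted permutation p = 0.009, Ion Proton 0.58, WT 0.48).

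Among the Rev-erb receptors and Dbp, Nr1d1 and Dbp had r = 0.52 by run (rho = 0.53, permutation p = 0.00181, adjusted p = 0.009), with 0.53 on Ion Proton and 0.63 in the WT table. Nr1d2 and Dbp had r = 0.63 (rho = 0.65, adjusted permutation p = 0.0045) and 0.44 in the WT table but 0.20 on Ion Proton (adjusted permutation p = 0.673). For Arntl the r by run was negative with all 8 other genes on Illumina (−0.15 to −0.48) and on Ion Proton, but the adjusted permutation p was below 0.05 for only 2 of 8 on Illumina, Dbp and Nr1d2 (−0.46, adjusted permutation p = 0.0375, Ion Proton −0.07), and for 1 of 8 on Ion Proton, Cry2 (−0.50, adjusted permutation p = 0.0421, Illumina −0.21). Within the series from 9000 alone the Illumina r was positive with 6 of 8 genes and within the fourth run with 5 of 8, none of them passing, whereas within the second run it was negative with all 8, and 2 of them passed. With Dbp it was −0.48 (rho = −0.55, permutation p = 0.00857, adjusted p = 0.028), −0.41 in the WT table and −0.11 on Ion Proton (adjusted permutation p = 0.777).

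For Cry1 and the Rev-erb receptors the basis decided the value. Cry1 and Nr1d1 had r = −0.66 by series (adjusted permutation p = 0.00447) and 0.01 by run (adjusted permutation p = 0.967), so the relation rested on the difference between runs. Nr1d1 and Nr1d2 had r = 0.05 by series and 0.63 by run (rho = 0.64, adjusted permutation p = 0.0045), with −0.03 on Ion Proton and 0.37 in the WT table (adjusted permutation p = 0.0583). Inside the 2 longer runs taken alone, 8 of 36 pairs passed in the second run (14 rats) and none in the fourth run (13 rats).

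**Figure D4:**
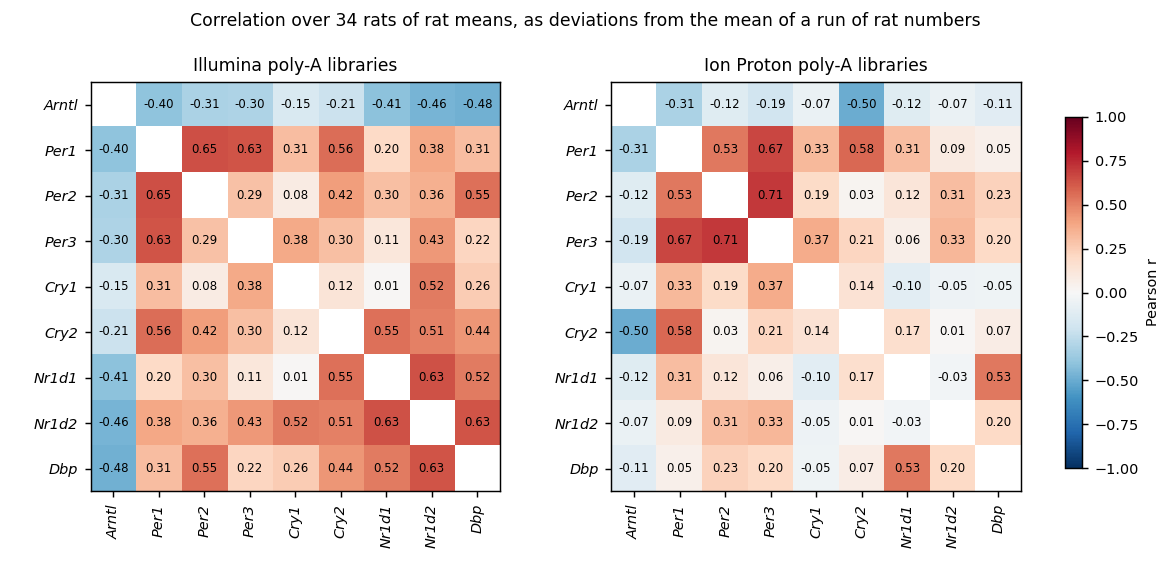
Pearson r between the 9 clock genes over 34 rats, as deviations of rat means from the run mean, Illumina on the left and Ion Proton on the right, on a colour scale from −1 to 1. The row of Arntl is negative throughout in both, Per1 with Per3 is high in both (0.63 and 0.67), and Nr1d1 with Nr1d2 is high on the left alone (0.63 against −0.03).

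**Figure D5:**
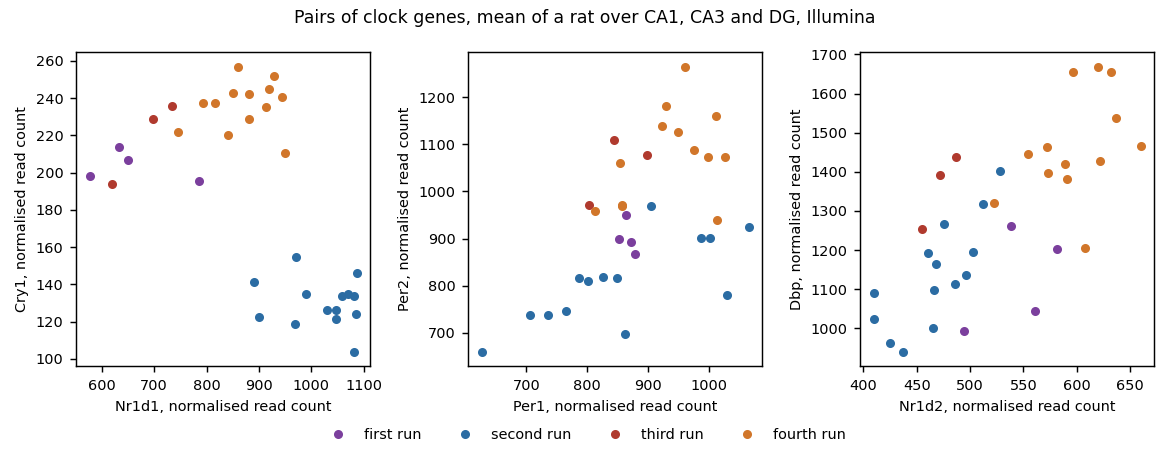
Rat means (Illumina normalised read count, linear axes) of Nr1d1 against Cry1, Per1 against Per2 and Nr1d2 against Dbp, 1 point a rat, coloured by the 4 runs. For Nr1d1 against Cry1 the 4 rats of the first run stand apart, with Cry1 at 195.6 to 213.8 and Nr1d1 at 576.9 to 786.4, whereas Per1 rises with Per2 inside the runs (r = 0.65 by run).

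For each clock gene the genes of nearest pattern over the 34 rats were looked up among all genes tested, by the r of rat means as deviations from the series mean, as a description without a test. For Dbp the highest was Ciart (r = 0.67 and by run 0.71, Ion Proton 0.30 and by run 0.49), the clock repressor whose promoter is shown above, and Ciart was also among the 3 lowest for Arntl (−0.52, Ion Proton −0.17). For Per2 they included Tsc22d3 (0.66, Ion Proton 0.45), a glucocorticoid-induced leucine zipper gene, and Cxadr (0.66, Ion Proton 0.43). Per1 was nearest to Smarcd2 (0.70, Ion Proton 0.35) and to Slx4 (0.68, Ion Proton 0.63), and Per3 to Sirt1 (0.78, but 0.23 on Ion Proton), a deacetylase. By run these 3 were 0.77, 0.69 and 0.70, and on Ion Proton 0.50, 0.78 and −0.005. Nr1d1 was nearest to Rnf208 (0.90, Ion Proton 0.83), and Cry1 to Dnajc3 (0.84, Ion Proton 0.65), but by run these were 0.53 and 0.43. Cry2 was nearest to Lrrc73 (0.75, Ion Proton 0.33), with Nr1d1 among its 5 highest (0.72, Ion Proton 0.36), and Nr1d2 to Epm2a (0.80, Ion Proton 0.55). By run these 3 were 0.675, 0.551 and 0.615, and on Ion Proton 0.04, 0.165 and 0.278. At the other end, Cry1 was lowest with Mapre3 (−0.85, by run −0.31, Ion Proton −0.68) and Nr1d1 with Rnf20 (−0.85, by run −0.23, Ion Proton −0.83). Cry2 was lowest with Xrcc5 (−0.79, Ion Proton −0.37), Nr1d2 with Fabp7 (−0.78, Ion Proton −0.49) and Per2 with Rhob (−0.69, Ion Proton −0.28). By run these 3 were −0.69, −0.41 and −0.64, and on Ion Proton −0.21, 0.02 and −0.23. For Per1 the lowest was Tmem176b (−0.70), where Ion Proton gave 0.09.

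The wider clock was read from 3 lists. Of 11 tested loop factors, 4 were higher and 1 lower in CA1 than in CA3, 3 and 3 in CA1 against DG, and 1 and 5 in CA3 against DG, where 14.4%, 26.9% and 28.5% of all genes were called in these contrasts. Without the 14 libraries nearer to another subfield, of 10 tested 5 were higher and 0 lower in CA1 than in CA3 (18.7% of all genes), 3 and 2 in CA1 against DG (27.9%) and 0 and 5 in CA3 against DG (29.8%). Hlf, a D-box factor related to Dbp, was higher in CA1 than in CA3 by 0.90 and lower in CA3 than in DG (−0.72). Bhlhe40, a repressor also called Dec1, was higher in CA1 than in CA3 by 0.77 and than in DG by 0.96. Npas2, which can take the place of Clock beside Arntl, was higher in CA1 than in CA3 by 0.49 and than in DG by 0.88, and Arntl2, a paralogue of Arntl, was lower in CA1 (−0.54 and −0.93). Ciart (−0.42) and Tef (−0.45) were lower in CA3 than in DG. Between the number series, Rorb (0.62), Rora (0.52), Npas2 (0.30) and Bhlhe41 were higher from 9000 up and Nfil3, a D-box repressor, was lower (−0.33), 5 of 11 in all beside 12.9% of all genes. Of the 3 lists together (24 genes tested in CA1 and 25 elsewhere), limma called 0 for age or for cognition in any subfield or over rat means, beside the shares of all genes given above for these comparisons. At an unadjusted p below 0.05 on Illumina there were at most 3 of them, for age in DG (beside 5.2% of all genes) and for age over rat means (beside 8.2%).

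Of 7 kinases, ligases and partners of the clock proteins, limma called 0 between CA1 and CA3 beside 14.4% of all genes, 1 between CA1 and DG (Timeless, 0.34) beside 26.9% and 1 between CA3 and DG (Fbxw11, −0.09) beside 28.5%. Between the series 1 was called, Btrc (−0.13), beside 12.9%. Of 7 rhythmic output genes, read against the same shares, Usp2 (0.47) and Por (0.25) were higher in CA1 than in CA3. Between CA1 and DG 2 were higher and 3 lower, with Sik1 at 0.61 and Lonrf3 at −0.36. Between CA3 and DG 1 was higher (Sik1, 0.48) and 4 lower, with Usp2 at −0.73 and Lonrf3 at −0.48. Between the series 1 was called, Lonrf3 (0.38).

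Corticosteroid targets and activity-dependent early genes were counted beside the clock because Per1 and Per2 answer to both. From 9000 up, 3 of 8 corticosteroid targets were higher over rat means, namely Pdk4 (0.58), Tsc22d3 (0.39) and Fkbp5 (0.22), beside 12.9% of all genes. Of 8 early genes 3 were lower from 9000 up, namely Npas4 (−1.23), Fos (−0.93) and Junb (−0.33). With age, Tsc22d3 was lower in CA3 (−0.26, p = 0.003), the 1 of 8 corticosteroid targets called in that subfield, beside 0.402% of all genes. Of the early genes, 5 of 8 were higher in CA1 than in CA3, beside 14.4% of all genes, and 6 of 8 than in DG, beside 26.9%. The part of either list in the clock gene differences was not tested.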

How the data were processed

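RNA of CA1, CA3 and DG from 34 rats was measured in 3 tables with 1 library per rat and subfield. The deposited values are a signal, gene counts that the authors divided by size factors per library. Per the labels, reads were demultiplexed with bcl2fastq 2.17, trimmed with cutadapt 1.8.3, aligned with STAR 2.5 on Illumina (TopHat2 for Ion Proton) to rn5, counted with featureCounts 1.4.4 and scaled with DESeq2 1.16.1. The labels and the study's methods differ on whether the kit kept strand, so reads of overlapping antisense genes may not be told apart, and the library type of the WT table is not given in the sources used here. Nearly every value above 0 came out as a whole read (100.0% within 0.01 of a read in each table), so edgeR 4.0.16 and DESeq2 1.42.0 were run on the recovered reads as alternatives.

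The main test was limma 3.58.1 (R 4.3.3) on log2(value + 1) over genes with a mean of at least 10, fitted on the whole table, two-sided, with Benjamini-Hochberg adjustment. Fold changes on this scale understate those of low genes. Subfield, series and run calls needed an adjusted p below 0.05 in both poly-A tables, and age and cognition calls a p below 0.01 on Illumina with a one-sided p below 0.05 on Ion Proton. As Ion Proton repeats the same RNA, it checks the measurement and not the animals. Rats are the replicates, and the 3 subfields of a rat are paired because they come from 1 animal. Over 34 rats, deviations from the group means had a median r of 0.053 for CA1 and CA3. It was 0.24 for CA1 and DG and 0.0 for CA3 and DG. The subfield fits, over all rats and within a series, had no rat term except where the rat is named as a block. The scripts were tested on simulated data.

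All listed clock genes are named, the wider lists are given by counts with values for those called, and 5 highest and 3 lowest genes by r were looked up for each clock gene. The genes and lists were chosen with earlier results of these data known. As Clock was not analysed, 36 pairs of genes and 27 pairs of subfields were run. The fits within and between runs of rat numbers, the subfield fits within series and the series effect's differences between subfields were chosen after seeing the data. Promoters come from RefSeq, and the entries of Cry1 and Hlf were not used here.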

Additional observations from a re-analysis of the deposited data

Results flagged for a closer look

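Of 54 checks of the highest or lowest library in the group of young rats, 1 stood apart by its gap to the next. It was Per1 in CA1, where the lowest young library stood at 832.3. The ratio of that gap to the range, 0.467, barely passed the critical value of 0.466. Chance passes this value in about 1 in 20 groups when both ends of a group are checked.

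For 6 contrasts the difference between subfields changed with the number series, by the test of that change with the rat as a block. For CA1 against CA3 the change from below 9000 to 9000 up was −0.60 for Per2 on the log2 scale. For CA3 against DG it was 0.77 for Per2, 0.62 for Dbp, 0.51 for Per3, 0.38 for Per1 and 0.36 for Nr1d1. Without the 14 libraries nearer another subfield, the values of Per1 (0.26) and Nr1d1 (0.32) no longer passed on Ion Proton. Oligodendrocyte and subfield markers moved in the same contrasts, and their part was not tested.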

How the results depend on the processing

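Of the comparisons' values under the alternatives, 176 stayed within the bounds set for them and 34 moved, and of those of single genes 130 kept their call, 32 lost it and 4 changed sign. The cause was not tested for any of these beyond what the alternatives themselves change. The 3 calls between CA1 and CA3 became 6 with Illumina alone, 5 without the 14 libraries nearer another subfield and 5 within the second run of rat numbers. They became 0 within the series from 9000 and within the fourth run. The share of all genes called moved too, from 14.4% over all rats to 18.7% without the 14 libraries and 3.95% from 9000 up. The shares for Illumina alone, the runs, the fits without the deepest rats, edgeR and DESeq2 are not given here. The 2 calls between CA1 and DG (beside 26.9% of all genes) became 1 without the deepest rats and 0 below 9000 (beside 15.7%) and within the second run. The 2 between CA3 and DG became 4 with Illumina alone and within the second run, and 1 within the fourth run. Arntl changed sign between CA1 and CA3 (−0.06 from 9000 up and −0.09 within the fourth run) and between CA3 and DG (0.01 and 0.03). The age call of Per1 in CA1 became 0 with Illumina alone at an adjusted p, in the WT table, without the deepest rats, with DESeq2, and within each series and each of the 2 longer runs. Set against young rats in CA1, aged unimpaired rats had 0 calls and aged impaired rats 1, Per1. The call of Per1 in impaired rats was lost with Illumina alone, in the WT table, without the deepest rats and within each series. The 14 pairs of genes became 7 on Ion Proton, 9 below 9000, 4 from 9000 up, 8 within the second run and 0 within the fourth run. The 14 pairs of subfields became 2 on Ion Proton, 9 in the WT table, 4 by run, and 0 from 9000 up and within the fourth run. With the rat as a replicate block, the paired fit called 4 genes between CA1 and CA3 (Per2 added), 2 between CA1 and DG, 2 between CA3 and DG and 0 for the differences of the age and cognition effects between subfields, and no call was lost. The 6 calls for the difference of the series effect between subfields, from the paired fit, became 5 with no replicate block, where Nr1d1 between CA3 and DG was lost, and 4 without the 14 libraries in the paired fit. Quantile normalisation, a pseudocount of 0.1, testing all genes without a filter, and the number series as a covariate moved no count past the bounds, though Nr1d1 between CA1 and CA3 was lost without the filter, and Nr1d2 between the series without it and with that pseudocount. On the recovered reads, edgeR called 3 clock genes between CA1 and CA3, 2 between CA1 and DG, 2 between CA3 and DG and 1 for age in CA1, and DESeq2 called 2, 2, 2 and 0.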
